A study of Sus scrofa with 18 samples.

Results

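Neurotrophins and their receptors were followed through fetal brain growth of the pig as 6 genes: the ligands BDNF and NTF3, the receptor tyrosine kinases NTRK2 (TrkB) and NTRK3 (TrkC), the p75 receptor NGFR and the sorting receptor SORT1 (sortilin). The genes were chosen by name, and all 6 were present, once each, among the 31908 genes of the deposited gene table. The samples were 18 whole brains of fetuses from Landrace x Large White gilts bred to the LR-M6 line, taken on gestation day (GD) 45, 60 or 90. None was treated, and each of the 6 groups (female GD45, male GD45, female GD60, male GD60, female GD90 and male GD90) held 3 fetuses. The 18 fetuses fell into 9 pairs of 1 female and 1 male that shared gestation day and litter size in the labels; each pair was taken as a litter, with 3 litters a day, and fetuses are named here by sex and piglet number.

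Neurotrophins are secreted growth factors that keep neurons alive and shape their axons, dendrites and synapses. BDNF binds TrkB and NTF3 (neurotrophin-3) binds TrkC, whose intracellular kinases then signal through adaptor proteins. Both Trk genes also make truncated forms that keep the extracellular part and lack the kinase. NGFR binds all mature neurotrophins and, together with sortilin, their uncleaved proforms. The comparisons ask how the level of each ligand and receptor differed between days of gestation and between the sexes.

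The alternative ends of the 2 Trk genes are shown because the reads on them separate kinase from truncated forms. All are from the Sscrofa11.1 genome with RefSeq coding ends, 5′ to 3′ on the strand of the gene. In the first 3 the capitals mark the stop codon that ends a form without kinase. The first is NTRK2, chr10:30263029-30263066, minus strand, the end of the truncated form without an added domain. The second is NTRK2, chr10:30199526-30199554, minus strand, the end of the form known as T-Shc. The third is NTRK3, chr1:191821124-191821242, plus strand.
NTRK2 truncated: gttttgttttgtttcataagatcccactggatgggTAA
NTRK2 T-Shc: ggcccagaggttcccccaagatcgccTGA
NTRK3 truncated: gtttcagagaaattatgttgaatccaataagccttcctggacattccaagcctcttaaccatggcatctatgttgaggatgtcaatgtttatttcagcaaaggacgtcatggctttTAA
The first exon found only in kinase forms is 131 bases in both genes, at chr10:30128375-30128505 (minus strand) in NTRK2 and chr1:191856687-191856817 (plus strand) in NTRK3. Capitals mark the bases that both share, 94 of 131 (71.8%) without gaps.
NTRK2 kinase: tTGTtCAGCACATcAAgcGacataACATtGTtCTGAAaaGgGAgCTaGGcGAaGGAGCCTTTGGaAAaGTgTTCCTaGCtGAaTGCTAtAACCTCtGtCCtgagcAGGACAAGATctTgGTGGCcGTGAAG
NTRK3 kinase: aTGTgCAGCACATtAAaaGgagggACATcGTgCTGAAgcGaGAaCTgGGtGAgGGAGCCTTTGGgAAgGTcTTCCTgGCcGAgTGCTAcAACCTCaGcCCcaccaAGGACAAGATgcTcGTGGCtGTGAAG

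Libraries held between 15118843 and 19729783 counts. They stood apart in how reads were spread along genes. The 5′-to-3′ balance is the log2 ratio of reads on the first to reads on the last well-covered exon, centred for each gene. It is given as the median over 5886 genes, which include none of the 6 genes or of the pathway and marker lists below. It ran from -1.27 in male 17 (GD45) to 0.68 in male 8 (GD90). The 3 males of GD90 lay between 0.63 and 0.68, while the 3 females of that day had -0.41, -0.24 and 0.46. The brain label was checked against neuronal markers: the summed level of 6 neuronal genes was 5902 to 9835 CPM in every library. CPM, the count of a gene relative to the library total scaled by the trimmed mean of M-values (TMM), is used below for the level of 1 gene between libraries. FPKM, the same value divided by the length of the gene in kilobases, is used for levels between genes.

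Over litters, 5 of the 6 genes differed between GD90 and GD45, 4 higher and 1 lower at GD90 (edgeR quasi-likelihood test, Benjamini-Hochberg adjusted p under 0.05). Of all genes tested 53.3% passed, 26.5% higher and 26.8% lower. Between GD60 and GD45, 1 of 6 passed, lower at GD60 (background 11.6% of all genes, 4.86% lower). Between GD90 and GD60, 3 of 6 passed, all higher at GD90 (background 37.4%, 18.7% higher). The median log2 fold change of the 6 was 0.80 from GD45 to GD90, beside -0.02 over all genes. In these brain homogenates, fewer cells of a type and less RNA per cell cannot be told apart.

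**Figure D1:**
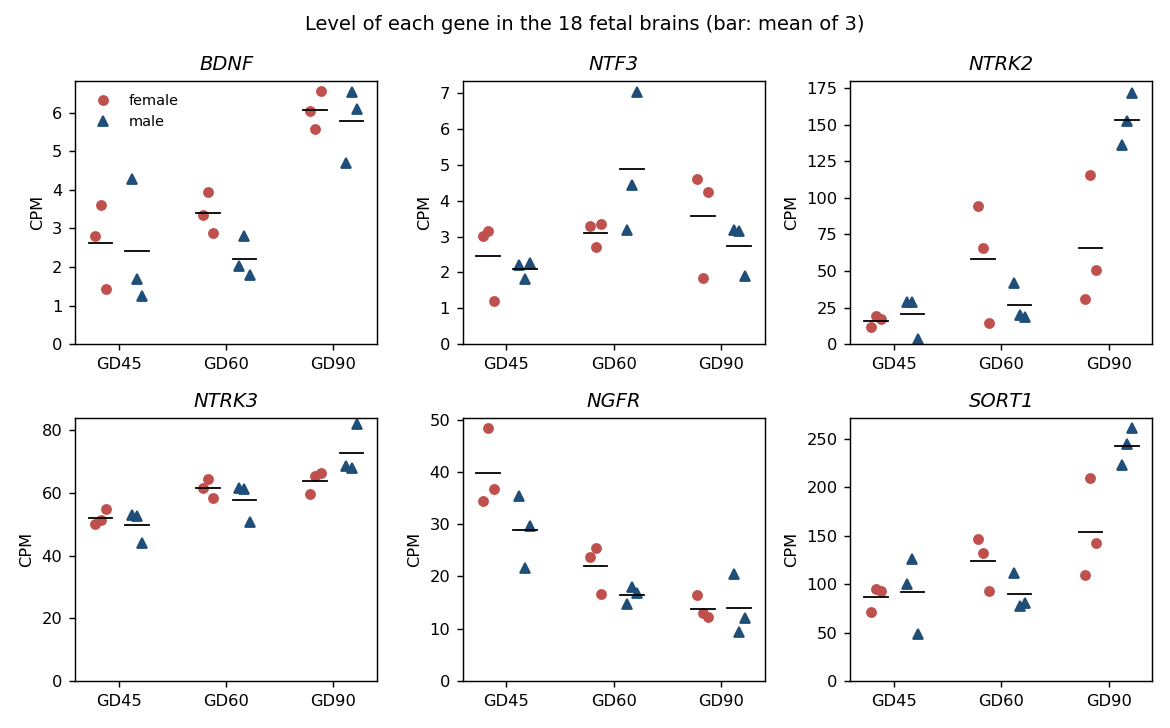
Level of each of the 6 genes in CPM on a linear axis, with 1 point a fetus (circles female, triangles male) and a bar at the mean of 3 per sex and day. BDNF lies higher at GD90 than at either earlier day and NGFR falls with day, while NTRK2 and SORT1 are widest apart between fetuses of 1 day.

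BDNF (ENSSSCG00000013333, chromosome 2, 32623268 to 32679164, plus strand), the main activity-dependent neurotrophin of the brain, had a low level that was higher at GD90. At GD45 the females had 2.81, 3.61 and 1.44 CPM and the males 4.27, 1.69 and 1.24 CPM. At GD60 the females had 3.35, 3.95 and 2.87 CPM and the males 2.02, 2.81 and 1.79 CPM. At GD90 the females had 6.05, 5.57 and 6.55 CPM and the males 4.70, 6.53 and 6.10 CPM. All 6 GD90 brains lay above all 12 earlier ones. Over litters BDNF was higher at GD90 than at GD60 (log2 fold change 1.06, SE 0.29, adjusted p = 0.015) and than at GD45 (1.20, SE 0.29, adjusted p = 0.00531). GD60 and GD45 did not differ beyond the spread of litters (0.14, SE 0.30, adjusted p = 0.815). The counts behind these levels were 16 to 106 reads per library.

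BDNF transcripts begin with alternative leader exons that are joined to 1 shared coding exon, and the exon table held few reads for each. Exon features held 146 of the 1116 reads of BDNF (13.1%), so most reads of the gene were not assigned to an exon, and for NTF3 they held 1.06%. The 4 leader exons held 27, 29, 40 and 17 reads over the 18 libraries in the order of the chromosome. The leader exon at 32644447 to 32644805 had 7 reads at GD45, 14 at GD60 and 19 at GD90, and at GD90 it was the only leader exon with a read in all 6 brains. No BDNF exon passed the filter for the test of exon usage.

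NTF3 (ENSSSCG00000033544, chromosome 5, 65052517 to 65123788, minus strand), the ligand of TrkC, had no call between days. Its level was 1.21 to 3.17 CPM at GD45 (median 2.23), 2.70 to 7.04 CPM at GD60 (median 3.32) and 1.86 to 4.61 CPM at GD90 (median 3.16). The highest value belonged to male 16 of GD60, and the 3 days overlapped. Over litters the log2 fold change was 0.79 (SE 0.26, adjusted p = 0.0758) from GD45 to GD60 and -0.33 (SE 0.26, adjusted p = 0.344) from GD60 to GD90. From GD45 to GD90 it was 0.46 (SE 0.26, adjusted p = 0.162). The GD45 to GD60 difference passed in the edgeR likelihood ratio test (adjusted p = 0.0402) and in DESeq2 (adjusted p = 0.0338). It was 0.57 without the GD60 litter of 8 fetuses, which held male 16 (adjusted p = 0.176).

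**Figure D2:**
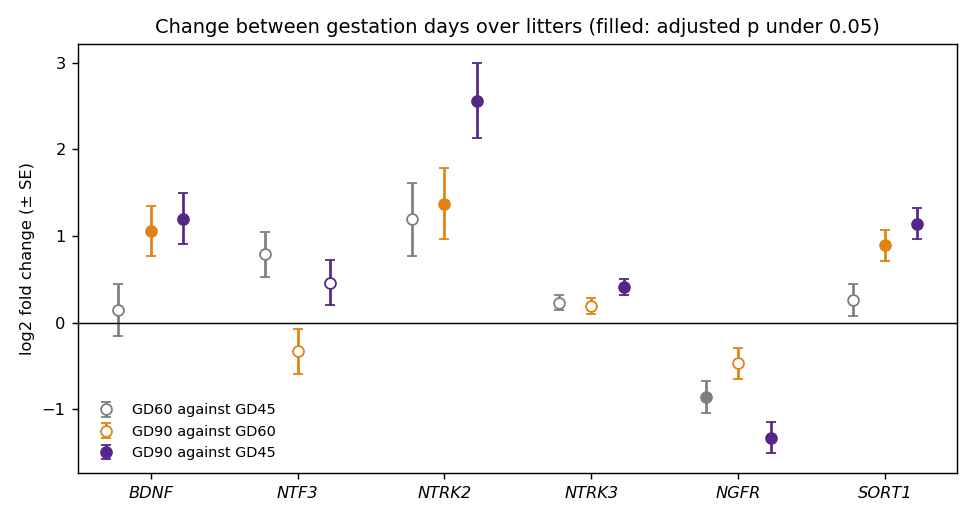
Log2 fold change of each gene between gestation days over 9 litters, with bars of 1 SE and filled points for adjusted p under 0.05. NTRK2 has the longest bars and the highest value (2.56 from GD45 to GD90), and NGFR is the gene with values below 0 in all 3 comparisons.

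NTRK2 (ENSSSCG00000010959, chromosome 10, 30033379 to 30429882, minus strand), the receptor of BDNF, was higher late in gestation and varied the most, relative to its mean, between fetuses of 1 day. At GD45 the females had 11.5, 19.1 and 17.4 CPM and the males 28.8, 28.6 and 3.89 CPM. At GD60 the females had 94.1, 65.9 and 14.2 CPM and the males 42.1, 19.8 and 18.9 CPM. At GD90 the females had 30.9, 116 and 50.6 CPM and the males 136, 152 and 171 CPM. The GD90 brains all lay above the GD45 brains, while GD60 overlapped with both. Over litters the log2 fold change from GD45 to GD90 was 2.56 (SE 0.43, adjusted p = 0.000507). From GD60 to GD90 it was 1.37 (SE 0.41, adjusted p = 0.0228), and from GD45 to GD60 it was 1.19 (SE 0.42, adjusted p = 0.0942). The GD60 to GD90 call was lost without the GD60 litter of 15 fetuses (adjusted p = 0.0703), the GD90 litter of 11 (0.0774) or the GD90 litter of 18 (0.0565). The GD45 to GD60 value passed without the GD60 litter of 8 (1.57, adjusted p = 0.0101), in the likelihood ratio test (adjusted p = 0.034) and with no filter on low counts (adjusted p = 0.0228).

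The level of NTRK2 moved with the 5′-to-3′ balance of the library. The correlation of its log2 level with the balance was 0.97 at GD45, 0.96 at GD60 and 0.99 at GD90, and 0.91 over the 18 libraries. On each day the library with the lowest balance also had the lowest NTRK2 level: male 17 at GD45, female 15 at GD60 and female 2 at GD90. With the balance as a covariate the log2 fold change from GD45 to GD90 was 1.49 (adjusted p = 9.91e-05). On the 3′-most well-covered exon of the gene it was 2.28 (SE 0.44, adjusted p = 0.00115), and from GD60 to GD90 1.20 (SE 0.42, adjusted p = 0.0558). That exon lies beyond the ends of the truncated forms and so does not measure them. The part of the balance in the differences between fetuses of 1 day was not tested.

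**Figure D3:**
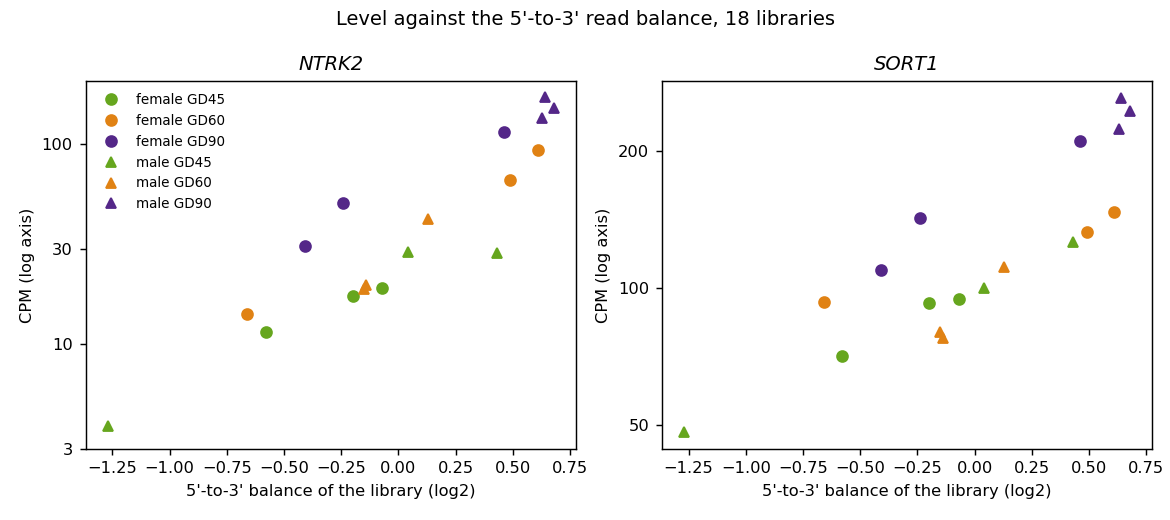
Level of NTRK2 and SORT1 in CPM on a log axis against the 5′-to-3′ balance of each of the 18 libraries (log2), with colours for gestation day and shapes for sex. Within a day, most libraries with a higher balance lie higher, with female 15 of GD60 as an exception for SORT1, and the GD90 libraries lie above the libraries of the earlier days that have a like balance.

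The reads of NTRK2 were divided by which form an exon belongs to, using the ends whose sequences are given above. Exons shared by all forms held 4562 reads, the truncated exon 414, the 4 exons of the kinase 796, the last exon 1539 and the T-Shc exon 10. The T-Shc exon also had an overlapping feature of 503 bases with 0 reads, and the last exon had 1 of 2261 bases. Most bases of each exon lie in both its features, where reads appear not to have been counted. Their totals are therefore not on a par with the others, and 10 reads do not show that T-Shc was rare. Exon features together held 46.2% of the reads of NTRK2 and 79.4% of those of NTRK3. Per kilobase of exon the mean level at GD45, GD60 and GD90 was 2.76, 6.28 and 17.8 CPM on shared exons and 0.896, 2.68 and 8.18 CPM on kinase exons. On the truncated exon it was 8.85, 12.3 and 37.0 CPM per kilobase. All these means were highest at GD90. The truncated exon measured 73 bases in the deposited table and 5602 bases in RefSeq, so most of this exon was not counted and its level per kilobase rests on a short stretch. Kinase reads per 100 shared reads had a median of 10.4 at GD45 (range 7.34 to 30.6), 16.9 at GD60 (9.62 to 27.3) and 18.1 at GD90 (14.3 to 24.2). These ranges overlapped between all days.

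NTRK3 (ENSSSCG00000005106, chromosome 1, 191535300 to 191925353, plus strand), the receptor of NTF3, had the narrowest spread of the 6 genes relative to its mean and rose by a small amount. At GD45 the females had 50.1, 51.2 and 55.0 CPM and the males 52.8, 52.6 and 44.1 CPM. At GD60 the females had 61.6, 64.4 and 58.3 CPM and the males 61.5, 61.3 and 50.6 CPM. At GD90 the females had 59.8, 65.5 and 66.4 CPM and the males 68.5, 68.1 and 82.1 CPM. GD45 and GD90 did not overlap. Over litters NTRK3 was higher at GD90 than at GD45 (log2 fold change 0.41, SE 0.09, adjusted p = 0.00376). The steps from GD45 to GD60 (0.23, SE 0.09, adjusted p = 0.155) and from GD60 to GD90 (0.19, SE 0.09, adjusted p = 0.148) did not pass. On the 3′-most exon with enough reads, which is the truncated exon, the difference between GD90 and GD45 was 0.23 (SE 0.11, adjusted p = 0.125). The log2 level of NTRK3 had a correlation of 0.7 with the 5′-to-3′ balance over the 18 libraries. Within GD45, GD60 and GD90 it was 0.85, 0.49 and 0.65. With the balance as a covariate 5 of the 6 genes passed between GD90 and GD45 over litters, NTRK3 among them.

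Most NTRK3 exon reads lay on the exon of the truncated form. It held 10355 of 14170 exon reads (73.1%), with 418 to 804 reads per library, while shared exons held 3086. The 4 kinase exons held 148 reads in all. Per kilobase the truncated exon had a mean of 15.7, 16.5 and 17.2 CPM at GD45, GD60 and GD90. Over the whole exon the means were 33.0, 34.7 and 36.0 CPM with SDs of 4.25, 4.76 and 4.65 CPM, so the days lay within this spread. Shared exons had 5.63, 7.41 and 10.2 CPM per kilobase and kinase exons 0.253, 0.568 and 1.30 CPM per kilobase. Truncated reads per 100 shared reads were highest on each day in the library with the lowest balance. They were 1565 in male 17 (GD45), 664 in female 15 (GD60) and 526 in female 2 (GD90), beside day medians of 380, 353 and 239. The part of the balance in the levels of these exons was not tested. Kinase reads per 100 shared reads had a median of 2.33 at GD45 (range 0.806 to 4.30), 4.09 at GD60 (1.65 to 5.61) and 6.13 at GD90 (2.83 to 13.0), with overlapping ranges. These rest on 1 to 31 kinase reads per library. The last kinase exon is not among these 4: the deposited table gave it 2 overlapping features, of 360 and 334 bases, with 0 reads on both, and RefSeq gives it 16682 bases. The shares of reads are therefore not shares of transcripts.

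**Figure D4:**
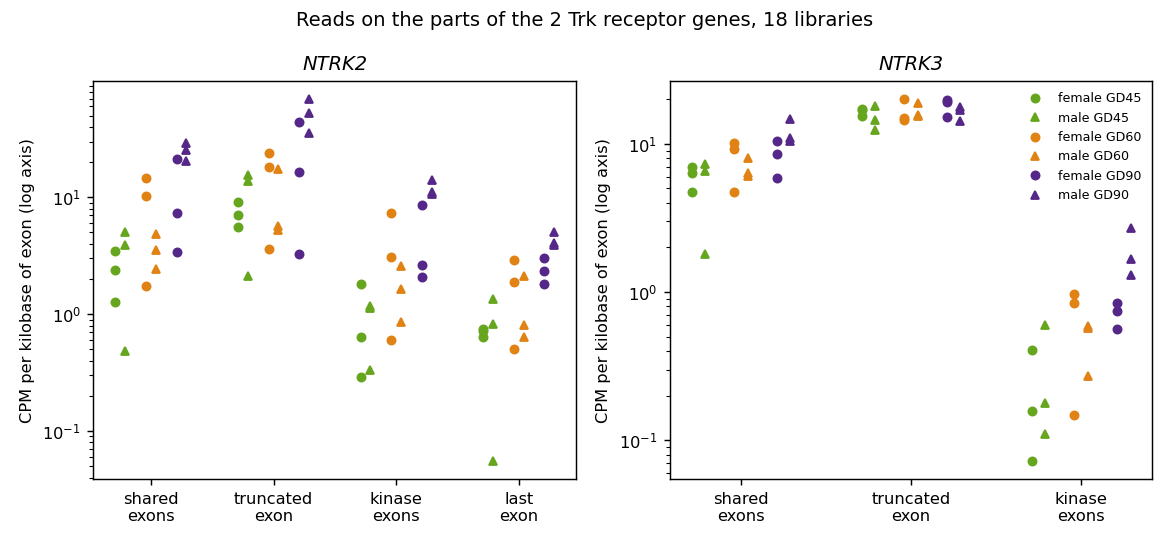
Reads on the parts of NTRK2 and NTRK3 in CPM per kilobase of exon on a log axis, 1 point a library, coloured by gestation day and shaped by sex. The mean of each part of NTRK2 is highest at GD90, while the truncated exon of NTRK3 has day means of 15.7 to 17.2 and its kinase exons lie lowest. The NTRK2 last exon is divided by 2822 bases, most of them covered by an overlapping feature with 0 reads. Its level per kilobase may therefore be too low.

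The transcript table listed 13 transcripts of the 2 receptors, 6 of NTRK2 and 7 of NTRK3. Only 3 had enough reads for a test. ENSSSCT00000053046 of NTRK3 held 10448 reads, ENSSSCT00000054821 of NTRK2 held 1540 and ENSSSCT00000011996 of NTRK2 held 433. These totals lie near those of the truncated exon of NTRK3, the last exon of NTRK2 and the truncated exon of NTRK2. The transcript counts thus followed reads on an exon of 1 form and left out those on shared exons. The other transcripts held 0 to 10 reads each, which does not show that they were absent. Between GD60 and GD90 in males, 2 of the 3 tested transcripts passed (background 18.7%). ENSSSCT00000011996 differed by 2.52 on the log2 scale (SE 0.74, adjusted p = 0.0243) and ENSSSCT00000054821 by 1.87 (SE 0.61, adjusted p = 0.0401), both higher at GD90. Neither passed without male 6 or 16 of GD60 or male 8 or 10 of GD90, and 1 passed without male 1 of GD90. In females between GD60 and GD90 (background 12.9%) and in either sex between GD45 and GD60 (2.17% in females, 1.56% in males), edgeR called 0 of 3, with 0 at an unadjusted p under 0.05.

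The share of transcripts and exons within each gene was tested over litters with edgeR's test of each feature against its gene. None of the 2 NTRK2 transcripts tested passed in any of the 3 comparisons of days (0 at an unadjusted p under 0.05). The background was 0.0782% from GD45 to GD60, 0.521% from GD60 to GD90 and 2.87% from GD45 to GD90. Of 50 exons of the 6 genes, 14 of NTRK3, 16 of NTRK2, 18 of SORT1 and 2 of NGFR, 0 passed in each comparison. At an unadjusted p under 0.05 there were 2, 3 and 7 in the same order of comparisons, and the background was 0.0328%, 0.103% and 1.86%. Without the GD45 litter of 17 fetuses, 1 of the 50 passed between GD90 and GD45, an NTRK3 exon at 191535300 to 191535388 (log2 difference from its gene 1.63, adjusted p = 0.0327, and 0.63, adjusted p = 0.534, with all litters). A SORT1 exon at 110747868 to 110747927, with 41 reads in all, passed there too (5.31, adjusted p = 0.0267), but it was not among the 50 and entered the test only when that litter was left out.

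NGFR (ENSSSCG00000017548, chromosome 12, 25699427 to 25720357, plus strand), the p75 receptor, was the 1 gene that fell. At GD45 the females had 34.4, 48.4 and 36.7 CPM and the males 35.3, 21.6 and 29.6 CPM. At GD60 the females had 23.8, 25.5 and 16.6 CPM and the males 14.8, 18.1 and 16.8 CPM. At GD90 the females had 16.4, 12.9 and 12.3 CPM and the males 20.5, 9.36 and 12.1 CPM. GD45 and GD90 did not overlap. Over litters NGFR was lower at GD60 than at GD45 (log2 fold change -0.86, SE 0.18, adjusted p = 0.01) and at GD90 than at GD45 (-1.33, SE 0.18, adjusted p = 9.83e-05). From GD60 to GD90 the value was -0.47 (SE 0.18, adjusted p = 0.0566), and without the GD90 litter of 10 it was -0.73 (adjusted p = 0.00343), or without the GD60 litter of 8 it was -0.56 (adjusted p = 0.0455). It passed in the likelihood ratio test (0.0383) and DESeq2 (0.0433). Exon features held 5.54% of the reads of the gene, and those of its last exon (25718030 to 25720357) held 0. The 3′-most exon with enough reads was that at 25717195 to 25717355, with 136 reads in all and 1 to 24 per library. No comparison passed on it (GD90 against GD45 -0.70, adjusted p = 0.209). With so few reads, that exon does not decide on the level of the gene.

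NGFR is also expressed by sensory and sympathetic neurons and Schwann cells outside the brain, so 6 markers of peripheral ganglia and Schwann cells were read beside it. Their summed level was 22.4 to 59.8 CPM at GD45, 10.5 to 23.5 CPM at GD60 and 10.9 to 21.6 CPM at GD90. Over litters 3 of the 6 were lower at GD60 than at GD45 and 3 at GD90 than at GD45, and none was higher. PRPH, an intermediate filament of peripheral neurons, had a mean of 19.1, 6.17 and 5.47 CPM on the 3 days (GD60 against GD45 -1.65, SE 0.21, adjusted p = 0.000996). POU4F1 and TLX3 were at 0 in at least 1 library of each day. The part of these cells in the fall of NGFR was not tested.

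SORT1 (ENSSSCG00000006831, chromosome 4, 110720100 to 110789702, plus strand), the sorting receptor that carries neurotrophins and binds their proforms with NGFR, was higher at GD90. At GD45 the females had 71.0, 94.7 and 92.9 CPM and the males 99.97, 126 and 48.3 CPM. At GD60 the females had 147, 133 and 93.1 CPM and the males 111, 77.5 and 80.2 CPM. At GD90 the females had 109.8, 209.6 and 142 CPM and the males 223, 245 and 261 CPM. The 3 GD90 males lay above every other brain, while GD90 females overlapped with GD60. Over litters the log2 fold change was 0.89 (SE 0.18, adjusted p = 0.00305) from GD60 to GD90 and 1.14 (SE 0.18, adjusted p = 0.000339) from GD45 to GD90. From GD45 to GD60 it was 0.26 (SE 0.18, adjusted p = 0.405). As for NTRK2, the library with the lowest balance had the lowest level at GD45 and at GD90, but not at GD60. The correlation of the log2 level of SORT1 with the balance was 1 (rounded) at GD45, 0.8 at GD60 and 0.98 at GD90. With the balance as a covariate the difference between GD90 and GD45 was 0.73 (adjusted p = 0.000106), and on the last exon it was 1.10 (SE 0.20, adjusted p = 0.00066).

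Per length, the order of the 6 genes changed between days. At GD45 SORT1 had a mean of 13.0 FPKM ± 3.87 (SD, n = 6), NGFR 9.73 ± 2.50, NTRK3 9.25 ± 0.682, NTRK2 2.68 ± 1.43, BDNF 0.891 ± 0.444 and NTF3 0.711 ± 0.229. SORT1, NGFR and NTRK3 lay within their spread of each other, as did the 2 ligands. At GD60 SORT1 had 15.6 ± 4.16, NTRK3 10.8 ± 0.874, NTRK2 6.26 ± 4.70, NGFR 5.45 ± 1.23, NTF3 1.25 ± 0.498 and BDNF 0.994 ± 0.287. NTRK2 and NGFR, and again the 2 ligands, did not differ beyond their spread. At GD90 SORT1 had 29.0 ± 8.73, NTRK2 16.1 ± 8.35, NTRK3 12.4 ± 1.34, NGFR 3.94 ± 1.11, BDNF 2.10 ± 0.248 and NTF3 0.985 ± 0.357. NTRK2 and NTRK3 lay within their spread of each other. NTRK2 stood above NGFR in mean FPKM at GD90 and below it at GD45. The 6 values of a day came from 3 litters. The order between genes rests on the deposited lengths, which are incomplete for the Trk genes. The NTRK2 truncated exon had 73 of the 5602 bases in RefSeq and its last exon 2822 of 6151. The last NTRK3 kinase exon had 360 of 16682.

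Within each sex, with 3 fetuses a group, fewer differences passed. Between GD45 and GD60 in females 1 of 6 passed (background 7.22%, 2.88% lower), NGFR at -0.86 (SE 0.25, adjusted p = 0.0498). That call was lost without any 1 of the 6 females, with adjusted p from 0.0715 without female 12 to 0.19 without female 13. NTRK2 had 1.86 (SE 0.66, adjusted p = 0.105) in the same comparison, with 0.0285 without male 17 of GD45, who shares the estimate of spread, and 0.0309 without female 15. In males 0 of 6 passed by the edgeR quasi-likelihood test (background 5.61%), with 2 at an unadjusted p under 0.05 (background 18.1%) and 2 each in the likelihood ratio test and DESeq2. Those 2 were NTF3 (1.22, SE 0.39, adjusted p = 0.0873) and NGFR (-0.80, SE 0.26, adjusted p = 0.0835). NGFR passed without male 14 (-0.97, adjusted p = 0.0489).

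Between GD60 and GD90 in males 4 of 6 passed (background 34.5%, 18.5% higher), all higher at GD90. They were NTRK2 (log2 fold change 2.51, SE 0.67, adjusted p = 0.00865), SORT1 (1.44, SE 0.29, adjusted p = 0.00142), BDNF (1.38, SE 0.38, adjusted p = 0.0108) and NTRK3 (0.33, SE 0.12, adjusted p = 0.0364). The balance was -0.15 to 0.13 in the males of GD60 and 0.63 to 0.68 in those of GD90. These ranges did not overlap, so day and balance cannot be told apart within the males. The balance covariate had 1 slope shared by all 6 groups. Over the alternatives, the balance covariate among them, NTRK2 ran from 1.19 to 2.98 and SORT1 from 0.93 to 1.62. Both kept their calls throughout. Without male 16 of GD60 only 2 passed, and BDNF was at 1.25 (adjusted p = 0.0516) and NTRK3 at 0.25 (adjusted p = 0.17). NTRK3 also lost its call without male 6 (0.0546), 8 (0.0565) or 10 (0.176), and with the balance as a covariate (0.106). In females 0 of 6 passed by the edgeR quasi-likelihood test (background 27.1%), with 2 at an unadjusted p under 0.05 (background 38.3%) and 0 in the likelihood ratio test and in DESeq2. BDNF had 0.84 (SE 0.37, adjusted p = 0.107), NTRK2 0.18 (SE 0.63, adjusted p = 0.868) and SORT1 0.31 (SE 0.29, adjusted p = 0.459). With the balance as a covariate these 3 passed, at 0.92 (adjusted p = 0.0429), 0.77 (0.00236) and 0.44 (0.00409). NGFR had -0.66 (SE 0.26, adjusted p = 0.0694) and passed without female 15 (-0.83, adjusted p = 0.0357).

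The difference between the sexes in these changes was tested directly. For neither period did the edgeR interaction test call any of the 6 genes (0 of 6, background 0% of all genes), and neither the likelihood ratio test nor DESeq2 called 1. At an unadjusted p under 0.05 there were 0 from GD45 to GD60 (background 2.04%) and 2 from GD60 to GD90 (background 19.8%). Those were NTRK2 (males minus females 2.33, SE 0.91, adjusted p = 0.215) and SORT1 (1.13, SE 0.41, adjusted p = 0.205). Without male 17 of GD45 both passed, with adjusted p of 0.0449 and 0.0298. That male is not in this comparison and only shares the estimate of spread. The share of all genes called in that fit is not given here, so the 2 calls are not set against a background. With the 5′-to-3′ balance as a covariate NTRK2 was at 0.42 (adjusted p = 0.663) and SORT1 at 0.48 (adjusted p = 0.352). At GD90 the balance was 0.63 to 0.68 in the males and -0.41 to 0.46 in the females.

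Between males and females of the same day edgeR called 0 of 6 at GD45 (background 0.0919%), at GD60 (0.098%) and at GD90 (0.098%). At an unadjusted p under 0.05 there were 0, 0 and 1 (background 2.59%, 4.8% and 13.6%), and the likelihood ratio test and DESeq2 called 0 on each day. SORT1 at GD90 was the 1 at an unadjusted p under 0.05 (0.66, SE 0.29, adjusted p = 0.354), and NTRK2 had 1.22 there (SE 0.64, adjusted p = 0.381). The position of a male in the uterus was also recorded. Of the males of GD45 and GD60, 2 lay between 2 females (fMf) and 3 had a male on 1 side and a female on the other (mMf). Both fMf males came from litters of 8 fetuses and the mMf males from litters of 17, 13 and 15. The sex of the neighbours and litter size can therefore not be told apart here. The balance was -1.27 and -0.15 in the fMf males and 0.43, 0.13 and -0.14 in the mMf males. The fMf males had 3.89 and 18.9 CPM of NTRK2 and the mMf males 28.6, 42.1 and 19.8 CPM, and for SORT1 the values were 48.3 and 80.2 CPM beside 126, 111 and 77.5 CPM. None of the 6 genes passed in edgeR with gestation day as a term (0 of 6, background 0%), and 1, NTRK2, had an unadjusted p under 0.05 at -1.56 (SE 0.55, adjusted p = 0.416). Without male 16, NTRK2 was at -2.92 and SORT1 at -1.42 and both passed the threshold. The fMf side was then male 17 alone, the library with the lowest balance, so the spread came from the mMf males only and the test does not measure variation between fMf fetuses.

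NTF4, the other ligand of TrkB, had a low level, with a mean of 1.12, 0.876 and 1.22 CPM at GD45, GD60 and GD90, and no difference passed between GD90 and GD45 over litters (log2 fold change 0.16, SE 0.35, adjusted p = 0.728).

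**Figure D5:**
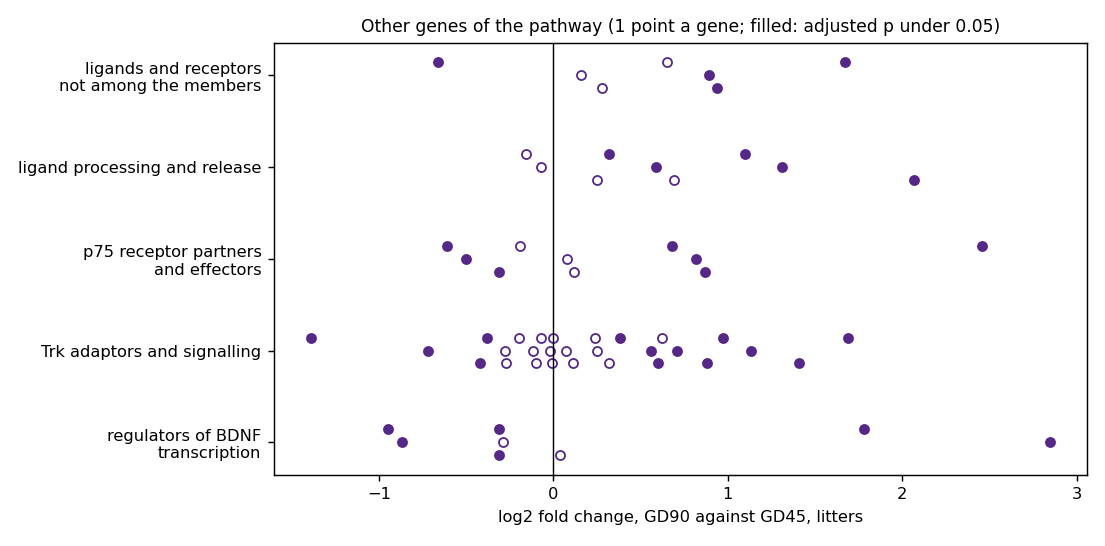
Log2 fold change from GD45 to GD90 over litters for each tested gene of 5 pathway lists, 1 point a gene, filled where adjusted p was under 0.05. The processing list has filled points above 0 alone, while the other lists have filled points on both sides.

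Around these genes, lists of the pathway were counted over litters between GD90 and GD45, beside the 53.3% of all genes called. Of 7 other ligands and receptors 3 were higher and 1 lower, with a median log2 fold change of 0.65. SORL1, a sorting receptor of the sortilin family, had a mean of 25.9, 38.8 and 82.7 CPM on the 3 days and was higher in both steps (GD90 against GD60 1.09, SE 0.11, adjusted p = 4.08e-05). Its relative SORCS2, a proneurotrophin receptor, was higher at GD90 than at GD60 (0.62, SE 0.12, adjusted p = 0.00266). Of 9 genes that process or release neurotrophins 5 were higher and none lower (median 0.59). CADPS2, which primes secretory vesicles, had 14.4, 24.9 and 61.6 CPM (GD90 against GD60 1.30, SE 0.16, adjusted p = 0.000112). HAP1, a partner of huntingtin in vesicle transport, had 0.84 in that step (SE 0.19, adjusted p = 0.0048). CPE, a carboxypeptidase of the secretory pathway, was higher at GD60 than at GD45 (0.43, SE 0.09, adjusted p = 0.0102).

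Of 10 partners and effectors of the p75 receptor 4 were higher and 3 lower at GD90 than at GD45 (median 0.10). NGEF, a guanine nucleotide exchange factor, had 49.6, 97.4 and 271 CPM (GD90 against GD60 1.47, SE 0.10, adjusted p = 3.7e-06). RTN4R, the Nogo receptor that pairs with p75, had 0.59 in the same step (SE 0.11, adjusted p = 0.00233), and TNFRSF19, a related TNF receptor, was higher at GD60 than at GD45 (0.40, SE 0.10, adjusted p = 0.0293). Of 28 Trk adaptors and signalling genes tested 9 were higher and 4 lower (median 0.09). MAP2K1, a kinase upstream of ERK, had 40.1, 52.6 and 131 CPM (GD90 against GD60 1.31, SE 0.11, adjusted p = 8.93e-06). SH2B2, an adaptor, was lower in that step (-1.17, SE 0.16, adjusted p = 0.000228), and GRB2, an adaptor to Ras, was higher at GD60 than at GD45 (0.38, SE 0.09, adjusted p = 0.0178). Of 8 regulators of BDNF transcription 2 were higher and 4 lower (median -0.30). NPAS4, an activity-induced factor, had a low level of 0.188, 0.485 and 1.32 CPM (GD90 against GD60 1.42, SE 0.44, adjusted p = 0.0256). CAMK4, a calcium-dependent kinase, had 35.0, 67.7 and 121 CPM (0.83, SE 0.15, adjusted p = 0.00147). CRTC1, a coactivator of CREB, had 133, 161 and 136 CPM and was higher at GD60 than at GD45 (0.29, SE 0.08, adjusted p = 0.0401). The regulators named for their size of change were all rises, beside the 4 of the list that were lower at GD90 than at GD45.

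Markers of brain cell types changed over the same days. Of the 6 neuronal genes 5 were higher and none lower at GD90 than at GD45 (median log2 fold change 1.34), and 3 were higher at GD90 than at GD60. SYT1, a synaptic vesicle calcium sensor, had a mean of 226, 329 and 769.6 CPM on the 3 days (GD90 against GD60 1.21, SE 0.14, adjusted p = 7.06e-05) and SNAP25, a protein of vesicle fusion, 237, 266 and 587 CPM (1.12, SE 0.10, adjusted p = 1.76e-05). The summed level, most of it TUBB3 and STMN2, was 5902 to 8583 CPM at GD45, 7101 to 9835 CPM at GD60 and 7797 to 9592 CPM at GD90. The summed level of 6 astrocyte genes was 220 to 382 CPM at GD45, 462 to 595 CPM at GD60 and 1662 to 2155 CPM at GD90, and all 6 were higher at GD90 than at GD45. GFAP, the astrocyte filament, had a mean of 33.0, 128 and 739 CPM on the 3 days. For 6 genes of the oligodendrocyte lineage it was 55.9 to 107 CPM, 123 to 167 CPM and 1798 to 3002 CPM, and all 6 were higher at GD90 than at GD60. The 4 microglial genes summed to 35.9 to 58.5 CPM at GD45 and 102 to 129 CPM at GD90, and all 4 were higher at GD90 than at GD45. Meningeal and perivascular genes, with 3 higher and 3 lower at GD90 than at GD45, summed to 728 to 1271 CPM, 825 to 1027 CPM and 937 to 1168 CPM. The 3 erythroid genes were all lower at GD90 than at GD45, at 92.2 to 169.9 CPM beside 241 to 764 CPM. Truncated TrkB is a known product of astrocytes, and the part of cell composition in the levels of NTRK2, SORT1 and BDNF was not tested.

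The genes most like each member over the 6 group means were found among 12802 genes, by the root mean square difference of centred log2 CPM. For BDNF they were PDLIM5 (0.0626), SYNPO2 (0.0754) and EPB41L3 (0.0856), and for NTF3 ARTN (0.108), CORT (0.14) and SMTNL2 (0.145). For NTRK2 they were the sodium channel SCN8A (0.107), the glutamate receptor subunit GRIN2A (0.126) and the potassium channel KCNA2 (0.149). For NTRK3 they were KBTBD7 (0.0195), AGFG1 (0.021) and ZFYVE9 (0.0289). For NGFR they were MEIS1 (0.0964), TAL1 (0.104) and LRAT (0.109), and for SORT1 TRPM3 (0.0482), ZNF385D (0.0648) and AAK1 (0.0732). The group means of NTRK3 differed little, with an SD of 0.20 on the log2 scale beside 1.28 for NTRK2, so its values are not on a par with those of the other genes. The groups also differed in 5′-to-3′ balance, with which the log2 levels of NTRK2 and SORT1 had correlations of 0.91 and 0.86 over the 18 libraries. The part of the balance in these likenesses was not tested.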

How the data were processed

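RNA of 18 fetal pig brains was sequenced after poly(A) selection. The authors trimmed reads with Trimmomatic, checked them with FastQC, aligned them to Sscrofa11.1 with HISAT2 and counted them with featureCounts, and deposited raw read counts per gene, transcript and exon; counting options and strand are not given in the sources used here. The 22 count columns gave 18 libraries, since 4 libraries had 2 runs, which were summed.

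Counts were fitted with edgeR 4.0.16 in R 4.3.3 (limma 3.58.1), using filterByExpr, TMM factors, quasi-likelihood tests and Benjamini-Hochberg adjustment over all features tested, with a threshold of 0.05. Comparisons within sexes used all 18 libraries as 6 groups (16325 genes). Comparisons over both sexes used counts summed over littermates (9 litters, 17003 genes), inferred from shared gestation day and litter size. P-values therefore measure the spread between these fetuses or litters. DESeq2 1.42.0, the edgeR likelihood ratio test, other filters and scaling, a litter block, leaving out each library or litter and, chosen after seeing the data, a 5′-to-3′ balance covariate and the 3′-most exon were alternatives. The balance used exons with at least 180 reads in genes with at least 4 of them. The 3′-most exon was the last one of a gene with at least 90 reads over all libraries. Scripts were tested on simulated data.

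Members and lists were chosen with earlier results of these data known. Named genes were the 6 members, NTF4, the 2 genes of each list with the largest absolute log2 fold change among those called from GD60 to GD90 and the 2 from GD45 to GD60 over litters, and the 3 genes nearest each member with a mean of at least 1 CPM; some genes under this rule are not reported here. SHC2, SHC4, AKT1 and HBA1 were not matched by symbol. Sequences are from RefSeq on Sscrofa11.1.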

Additional observations from a re-analysis of the deposited data

How the results depend on the processing

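The 5 genes called over litters from GD45 to GD90 numbered 5 under every alternative run on whole-gene counts, and from GD60 to GD90 the count was 2 to 4 (3 as reported). With litter as a replicate block, 0 genes were called in both interactions and in the 3 comparisons of the sexes, so the block changed no call there. Pairing rests on shared day and litter size in the labels.

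Counts that moved were these. From GD45 to GD60 in females (1 as reported) there were 2 with the likelihood ratio test, 2 with the balance covariate, 0 without TMM factors and 0 to 2 without 1 library. In males (0) there were 2 with the likelihood ratio test, with DESeq2 and with the covariate, and 0 to 1 without 1 library. Over litters (1) there were 3 with the likelihood ratio test, 2 with DESeq2, without a filter and with the covariate, and 1 to 2 without 1 litter. From GD60 to GD90 in females (0) there were 1 without TMM factors, 2 with only the libraries compared, 3 with the covariate and 0 to 1 without 1 library, and in males (4) 2 to 4 without 1 library. The interaction from GD60 to GD90 (0) gave 1 with only the libraries compared and 0 to 2 without 1 library, and the fMf comparison (0) 0 to 2 without 1 library, where the 2 rest on 1 fMf male. Transcripts called from GD60 to GD90 in males (2) were 1 without TMM factors and 0 to 2 without 1 library, and from GD45 to GD60 in females (0) 1 without a filter. Exons called from GD45 to GD90 (0) were 0 to 2 without 1 litter. The cause was not tested.

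In the comparisons of days, directions turned only for values that had not passed. From GD45 to GD60 in males BDNF ran from -0.46 without male 17 to 0.58 without male 11. NTRK2 ran from -0.10 without male 17 (-0.09 without male 4) to 0.72 without male 11. SORT1 ran from -0.35 without male 17 to 0.27 without male 14 (0.04 without male 11 or 16, 0.06 without male 6), and was 0.24 on the 3′-most exon. Over litters in that period BDNF ran from -0.16 without the GD45 litter of 8 (-0.01 without the GD60 litter of 15) to 0.46 without the GD45 litter of 16, and was -0.04 with the covariate. From GD60 to GD90 in females NTF3 ran from -0.03 without female 2 to 0.51 without female 7 and NTRK2 from -0.51 without female 7 (-0.29 without female 15) to 0.72 without female 3, and NTRK3 was -0.03 without TMM factors. On its 3′-most exon with enough reads, which held only 136 in all, NGFR from GD60 to GD90 was 0.04 in females, 0.60 in males and 0.31 over litters. Over all alternatives of the comparisons of days, within sexes and over litters, 543 values of single genes kept direction and side of the threshold, 25 lost a call, 30 gained 1 and 18 turned. BDNF rests on 16 to 106 reads per library and the 4 kinase exons of NTRK3 on 1 to 31, and the effect of depth on these was not tested.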
